A study of Mus musculus with 8 samples.

Results

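The 10 genes described here are immediate early genes, namely Fos, Fosb, Jun, Junb, Egr1, Egr2, Ier2, Atf3, Dusp1 and Zfp36, measured in mandibular molar tooth germs of mouse embryos. They were chosen by name, as every probe set that the platform annotation gives to exactly 1 of these genes, which yields 12 probe sets among 34945 single-gene probe sets, or 10 of 18193 genes. Jun and Egr2 had 2 probe sets each. All 10 genes passed the filter on weak signals, so 10 of the 12999 genes tested are members. The choice of genes followed an earlier reading of the same arrays, in which a list of such genes and heat shock genes was higher after 5E1 than after 40-1a. Their values in that contrast are therefore a description, and no test of it is offered.

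Pregnant ICR mice, an outbred stock, had 1 intraperitoneal injection at embryonic day 14, and tooth germs were dissected from the mandibles of their embryos 24 hours later. The 5E1 group received 10 mg/kg of an IgG1 antibody against the Shh protein, and the 40-1a group 10 mg/kg of an IgG1 antibody against β-galactosidase. The cyclopamine group received 10 mg/kg of this antagonist of Smo, the membrane protein that relays the Hedgehog signal, and the PBS group 1 ml of saline. Each of the 4 groups had 2 arrays, 1 per sample, and no genetic change is labelled in any of them. The labels call the arrays of a group biological replicates but do not say whether embryos or litters were pooled, name no vehicle for cyclopamine and give no time from dissection to lysis. What a p-value measures here is thus the spread between arrays, part of which may be technical.

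Immediate early genes are transcribed within minutes of a stimulus from factors already present in the cell, before any new protein is made. Growth factors act on them through MAP kinases, serum response factor and its partners at the CArG box, and CREB at cyclic AMP response elements. Their transcripts are short-lived. In the developing tooth they lie downstream of FGF and other receptor signals, and in any fresh tissue they also respond to dissection and handling, so each value is given array by array. Fos and Fosb encode proteins that pair with Jun and Junb to form the transcription factor AP-1. Atf3 is a stress-induced relative that pairs with Jun proteins, and Egr1 and Egr2 are zinc finger transcription factors. Ier2 encodes a small nuclear protein. Dusp1, a phosphatase that inactivates p38 and JNK, and Zfp36, which binds AU-rich elements and promotes mRNA decay, act as brakes.

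The promoters of 4 members are shown because Fos and Egr2 had the widest ranges over the arrays, Atf3 had 5E1 arrays apart from all others, and Zfp36 shares the CArG box with Egr2, with the 250 bases before the RefSeq start given 5′ to 3′ on the gene's strand (GRCm38.p6). Capitals mark TGACG, the core of the cyclic AMP response element, on either strand (CGTCA on the reverse), the CArG box and TATAAA.
Fos, chr12:85473640-85473889, plus strand: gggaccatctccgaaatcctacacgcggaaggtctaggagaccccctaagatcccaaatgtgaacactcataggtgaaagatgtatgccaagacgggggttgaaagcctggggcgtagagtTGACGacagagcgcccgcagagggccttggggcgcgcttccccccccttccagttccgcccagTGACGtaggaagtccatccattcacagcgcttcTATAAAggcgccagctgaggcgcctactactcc
Egr2, chr10:67537619-67537868, plus strand: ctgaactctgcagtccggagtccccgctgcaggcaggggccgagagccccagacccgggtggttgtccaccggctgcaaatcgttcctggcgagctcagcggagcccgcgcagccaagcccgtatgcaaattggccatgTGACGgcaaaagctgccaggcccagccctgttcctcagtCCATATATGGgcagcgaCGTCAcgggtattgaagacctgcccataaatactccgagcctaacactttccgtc
Atf3, chr1:191183334-191183583, minus strand: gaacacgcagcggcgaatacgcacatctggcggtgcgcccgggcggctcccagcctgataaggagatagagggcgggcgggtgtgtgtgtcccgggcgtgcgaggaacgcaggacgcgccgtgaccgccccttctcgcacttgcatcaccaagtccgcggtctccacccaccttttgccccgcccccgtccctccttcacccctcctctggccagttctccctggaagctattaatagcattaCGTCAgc
Zfp36, chr7:28379229-28379478, minus strand: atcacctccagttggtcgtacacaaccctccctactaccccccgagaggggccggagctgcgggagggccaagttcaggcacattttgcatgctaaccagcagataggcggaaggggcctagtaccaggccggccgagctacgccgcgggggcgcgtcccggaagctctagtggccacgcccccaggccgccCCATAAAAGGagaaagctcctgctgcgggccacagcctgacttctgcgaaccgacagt
RefSeq windows were at hand for 8 of the 10 members, Egr1 and Ier2 being named only. TGACG lay in 8 of the 12 member windows, where 17.8% of 32851 promoter windows of the same length hold it. They belong to 6 genes, Fos, Fosb, Junb, Egr2, Atf3 and Dusp1. The full palindrome TGACGTCA, which contains TGACG, lay in that of Dusp1 (1.55% of windows). The CArG box lay in 5 of the 12 member windows, of Egr2 and Zfp36 (1.47% of all windows), and TATAAA in that of Fos (12.4%). The AP-1 letters TGACTCA (4.46%) and the Egr letters CGCCCACGC (0.536%) were in none of the member windows. Both strands were searched, and the Egr2 window shown is 1 of 5, some of which overlap. The overlapping windows hold the same TGACG and CArG sites, so the window counts include repeats of 1 site. By gene, TGACG was found for 6 of the 8 members with a window, and the CArG box for 2. Sites farther than 250 bases before the start were not searched, so a motif missing here may lie beyond the window. These matches are letters in a window of DNA and carry no measurement of binding.

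Levels are given as MAS5 signal, a linear brightness per probe set that can be compared between arrays but not between genes, listed with replicate 1 before replicate 2. Differences are between group means of log2(signal + 9), with the standard error (SE) from a fit of all 4 groups in limma, which pools the spread of a gene with that of genes of like level. The filter left out genes with a mean signal under 60.5, and p-values were adjusted over all genes tested, with a threshold of 0.05.

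Some facts on the arrays bear on every value. By average linkage over the genes tested, the arrays fell into 3 clusters that cut across the injections. The first arrays of 5E1, 40-1a and PBS made up cluster 1. The second arrays of 5E1, 40-1a and cyclopamine made up cluster 2, which left the first cyclopamine array and the second PBS array as cluster 3. Markers of the molar germ were present on every array, with signals of at least 341.8 for Shh, Sostdc1, Msx1, Pax9, Krt14, Lhx6 and Barx1. Cyclopamine replicate 1 stood apart in RNA measures, where the 18S rRNA probe sets averaged 2548, and 52.9 to 447.6 on the other 7 arrays. Its ratio of 3′ to 5′ signal was 1.504 for β-actin, against 1.18 to 1.25 elsewhere, and 0.886 for Gapdh, against 0.673 to 0.764.

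Among the AP-1 genes, Fos and Fosb varied widely between arrays of the same injection and Junb did not, with pooled SDs of 1.23, 0.773 and 0.257 on the log2 scale. Fos had signals of 952 and 4165 after 5E1, 574 and 1424 after 40-1a, 455 and 2270 after cyclopamine, and 2919 and 1685 after PBS. The highest and the lowest array thus differed 9.16-fold, and replicates of one injection differed 4.38-fold after 5E1 and 4.99-fold after cyclopamine. Only 40-1a, whose arrays both lay below both PBS arrays, did not overlap with its comparison group. Fosb was weak, at 50.3 and 234 after 5E1, 45.3 and 71.2 after 40-1a, 50.0 and 70.8 after cyclopamine, and 119 and 88.9 after PBS. On 3 arrays it was below the filter level of 60.5, and 5E1 replicate 2 was 4.64 times its partner array.

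Jun, read with its brighter probe set, had signals of 2456 and 4843 after 5E1, 2418 and 3209 after 40-1a, 2194 and 4163 after cyclopamine, and 3288 and 3506 after PBS. The PBS arrays differed 1.07-fold, while those of 5E1 and cyclopamine differed 1.97-fold and 1.90-fold. The second Jun probe set spanned a smaller range, 1.55-fold over the 8 arrays, and had its highest value on 5E1 replicate 2 as well (2005). The 2 probe sets disagreed on cyclopamine replicate 1, which was the lowest array for the first and the second highest, at 1775, for the other. As a result the second probe set was higher on both cyclopamine arrays than on both PBS arrays (log2 difference 0.11), where the first was at -0.17 with overlap. Junb, the more weakly transforming AP-1 partner, was at 369 and 452 after 5E1, 439 and 384 after 40-1a, 207 and 319 after cyclopamine, and 336 and 389 after PBS. Both cyclopamine arrays of Junb lay below the 6 other arrays, an order that 2.7% of all genes shared.

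Atf3 was the member in which the 5E1 arrays stood apart from every other array. Its signals were 231 and 363 after 5E1, 169 and 203 after 40-1a, 173 and 185 after cyclopamine, and 194 and 166 after PBS. The 6 arrays without 5E1 lay between 166 and 203. Among all genes 1.78% had both 5E1 arrays above the 6 others. Since Atf3 was noted after its values were seen, this share is background and no test.

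The brakes spanned 2.22-fold (Zfp36) and 1.81-fold (Dusp1) over the 8 arrays, where Jun spanned 2.21-fold. Zfp36 was at 410 and 737 after 5E1, 414 and 605 after 40-1a, 332 and 708 after cyclopamine, and 511 and 520 after PBS. Dusp1 was at 1367 and 1840 after 5E1, 1398 and 1481 after 40-1a, 1016 and 1555 after cyclopamine, and 1677 and 1411 after PBS. Both were highest on 5E1 replicate 2 and lowest on cyclopamine replicate 1, as were Fos, Jun and Junb. Ier2 had the narrowest range, 1.59-fold, with 1966 and 2531 after 5E1, 1901 and 2243 after 40-1a, 2245 and 2347 after cyclopamine, and 1832 and 2915 after PBS.

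**Figure D1:**
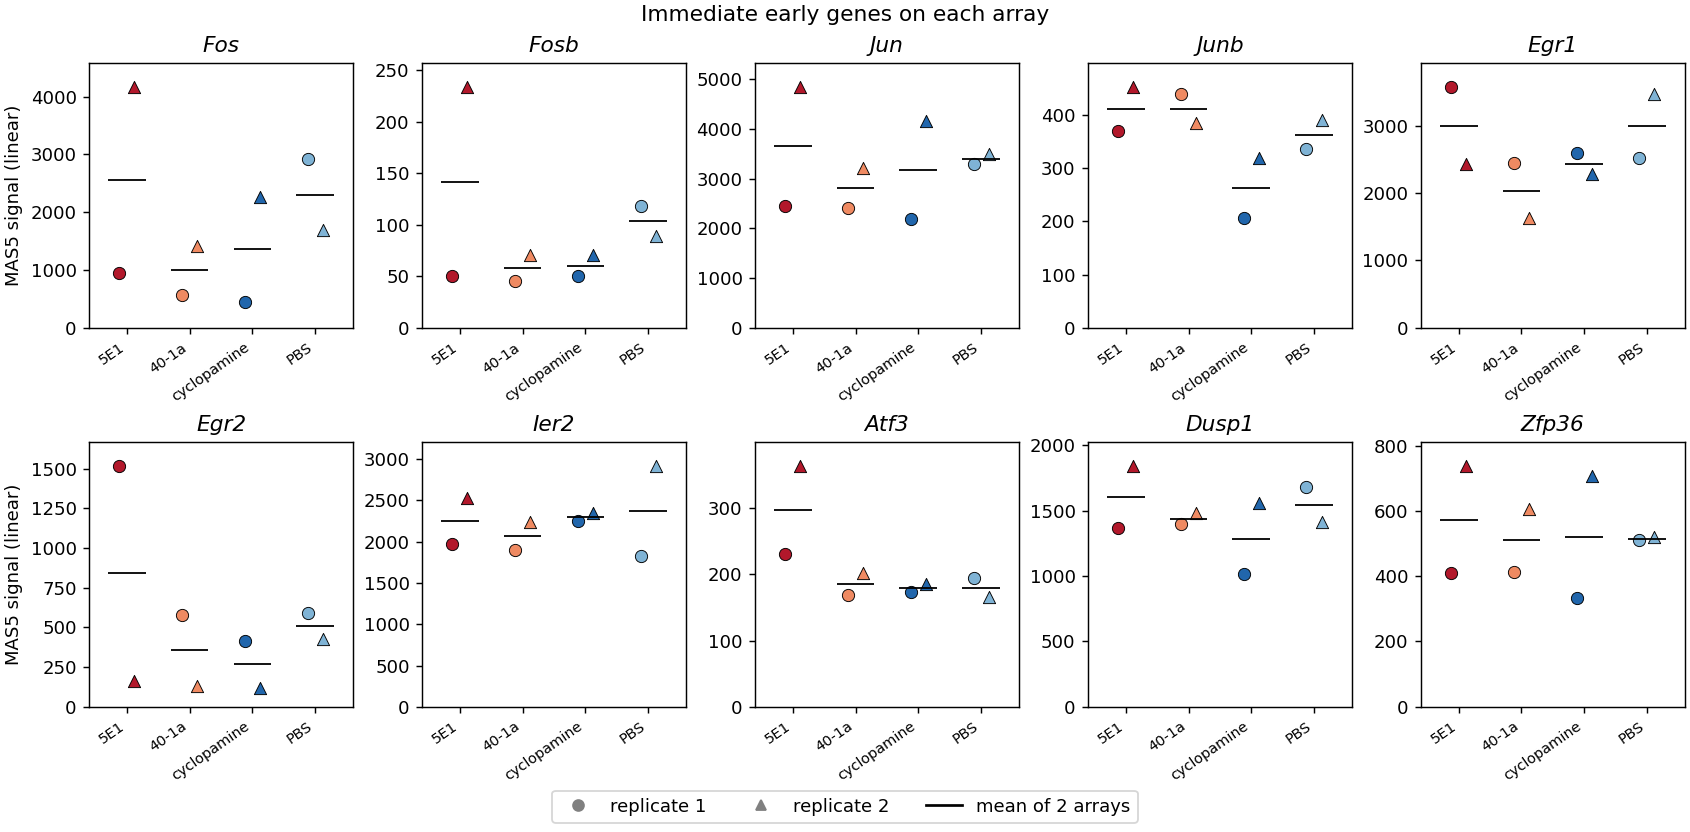
MAS5 signal (linear axis from 0) of the 10 immediate early genes on each of 8 arrays, by injection; circles are replicate 1, triangles replicate 2, bars the mean of 2 arrays. The 5E1 replicate 2 triangle is the highest point for 7 of the 10 genes, and for Fos it stands at 4165 against 952 on its partner array.

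The Egr genes followed another order of arrays. Egr2 had signals of 1516 and 163 after 5E1, 581 and 132 after 40-1a, 414 and 119 after cyclopamine, and 594 and 429 after PBS. The 3 arrays of cluster 2, at 119 to 163, lay below the other 5, and the 5E1 arrays differed 9.28-fold from each other. Its second probe set gave 717 and 202 after 5E1, 573 and 132 after 40-1a, 340.4 and 59.3 after cyclopamine, and 592 and 269 after PBS, with cluster 2 lowest again. Egr1 was at 3572 and 2428 after 5E1, 2442 and 1630 after 40-1a, 2590.1 and 2287 after cyclopamine, and 2527 and 3472 after PBS. It too was lowest on the 3 arrays of cluster 2, although by small margins, and both 40-1a arrays lay below both PBS arrays. Over all genes tested, 11.3% were lower on every cluster 2 array than on the other 5, and 2 of the 10 members were, Egr1 and Egr2. The clusters were made from these same values, so the order is a description.

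Egr2 is also a transcription factor of Schwann cells, so lists of cell type markers were set beside it. In bulk tissue fewer cells of a type and less RNA per cell cannot be told apart. Summed signals are set mostly by the brightest probe sets of a list and are compared between arrays only. Of 14 dental mesenchyme genes tested, 11 were lower on every cluster 2 array than on the other 5, and the summed signal of the list was 42086 to 102990.0 over the 5E1 arrays, 58106 to 100810.0 over the 40-1a arrays, 56391 to 86577 over the cyclopamine arrays and 85899 to 96942 over the PBS arrays. Of 10 nerve and Schwann cell genes 8 were measured, and 0 of the 6 tested were lower on every cluster 2 array. Their summed signal was 2395 to 3518 over the 5E1 arrays, 2079 to 2928 over the 40-1a arrays, 2450.3 to 3442 over the cyclopamine arrays and 2159 to 2439 over the PBS arrays. Sox10, the defining factor of Schwann cells, was weak, at 72.5 to 163 over the 8 arrays, and no marker of either list was at 0. Of 12 macrophage and leukocyte genes, 5 were lower on every cluster 2 array, with sums of 4193 to 7650.4 over the 5E1 arrays, 4872 to 5858 over the 40-1a arrays, 4531 to 5266 over the cyclopamine arrays and 4869 to 7195 over the PBS arrays. Among endothelial genes 2 of 10 were lower in this way. Higher on every cluster 2 array were 8.17% of all genes, 1 of the 10 members (Zfp36), 10 of 11 suprabasal oral epithelium genes, 6 of 13 dental epithelium genes and 5 of 14 skeletal muscle genes. The skeletal muscle sum was 5668 to 6708 over the 5E1 arrays, 1735 to 14621 over the 40-1a arrays, 3906 to 17196 over the cyclopamine arrays and 2862 to 6449 over the PBS arrays. The mean of the mesenchyme list was at -1.06, -0.38 and -0.54 on the 5E1, 40-1a and cyclopamine arrays of cluster 2 and at 0.32 to 0.44 on the other 5 arrays. The part of tissue make-up in its values was not tested.

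**Figure D2:**
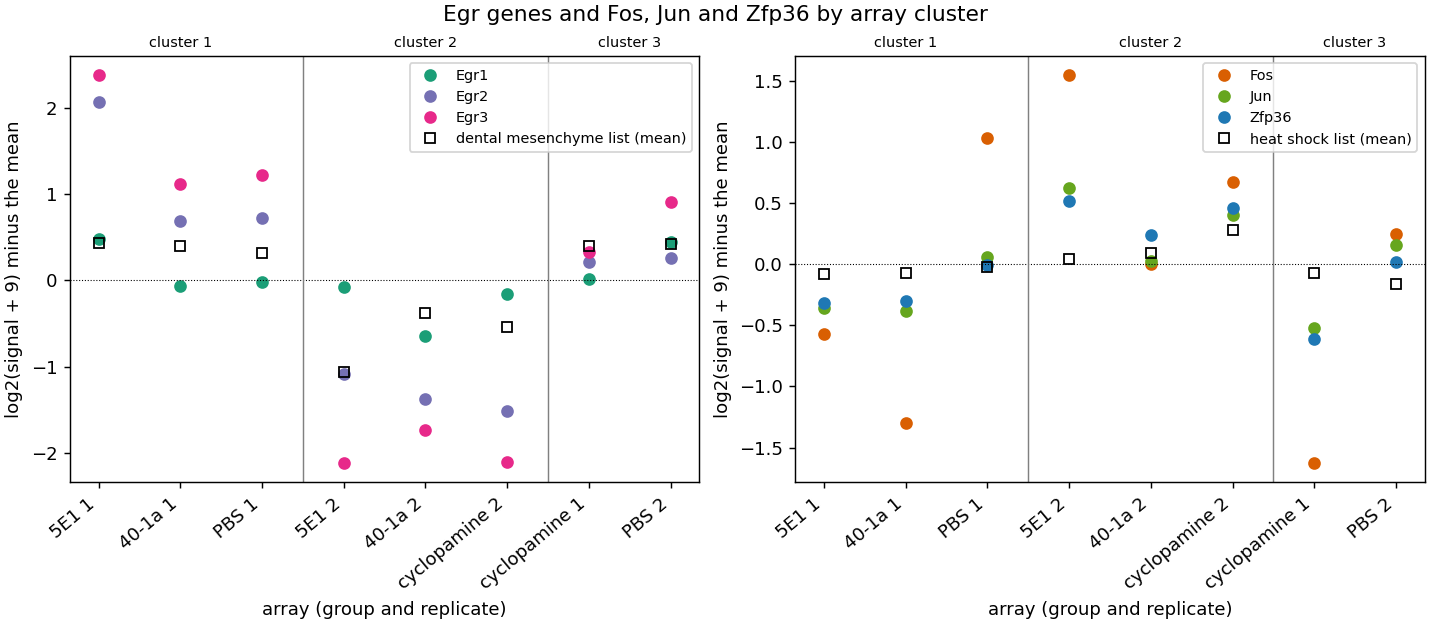
Centred log2 values on each array, with arrays in the order of clusters 1, 2 and 3 and labelled by injection and replicate number; the left panel shows Egr1, Egr2, Egr3 and the mean of the dental mesenchyme list, the right panel Fos, Jun, Zfp36 and the mean of the heat shock list. Egr2 and Egr3 lie below their means on the 3 cluster 2 arrays, whereas Fos lies high on 5E1 replicate 2 and PBS replicate 1, arrays of different clusters.

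Set as log2(signal + 9) minus each gene's mean, the 10 genes averaged 0.07 and 0.47 on the 5E1 arrays, -0.23 and -0.17 on the 40-1a arrays, -0.46 and -0.04 on the cyclopamine arrays, and 0.21 and 0.15 on the PBS arrays. The 5E1 replicate 2 array was the highest of 8 for 7 members, Fos, Fosb, Jun, Junb, Atf3, Dusp1 and Zfp36. The cyclopamine replicate 1 array was the lowest for 5, Fos, Jun, Junb, Dusp1 and Zfp36. In the median, replicates of one injection differed more for these genes than over all genes, least so after PBS. The members were uneven in this, with pooled SDs of 1.47 for Egr2 and 1.23 for Fos. Those of Junb, Atf3, Dusp1 and Ier2 lay between 0.255 and 0.282. The median absolute log2 difference between replicates was 0.73 after 5E1, 0.47 after 40-1a, 0.61 after cyclopamine and 0.32 after PBS for the members. Over all genes tested it was 0.31, 0.30, 0.25 and 0.25 in the same groups. Beyond 2-fold were 3 members after 5E1 (Fos, Fosb and Egr2), where 8.41% of all genes were, 2 after 40-1a (8.08%), 3 after cyclopamine (5.3%) and 0 after PBS (3.31%).

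**Figure D3:**
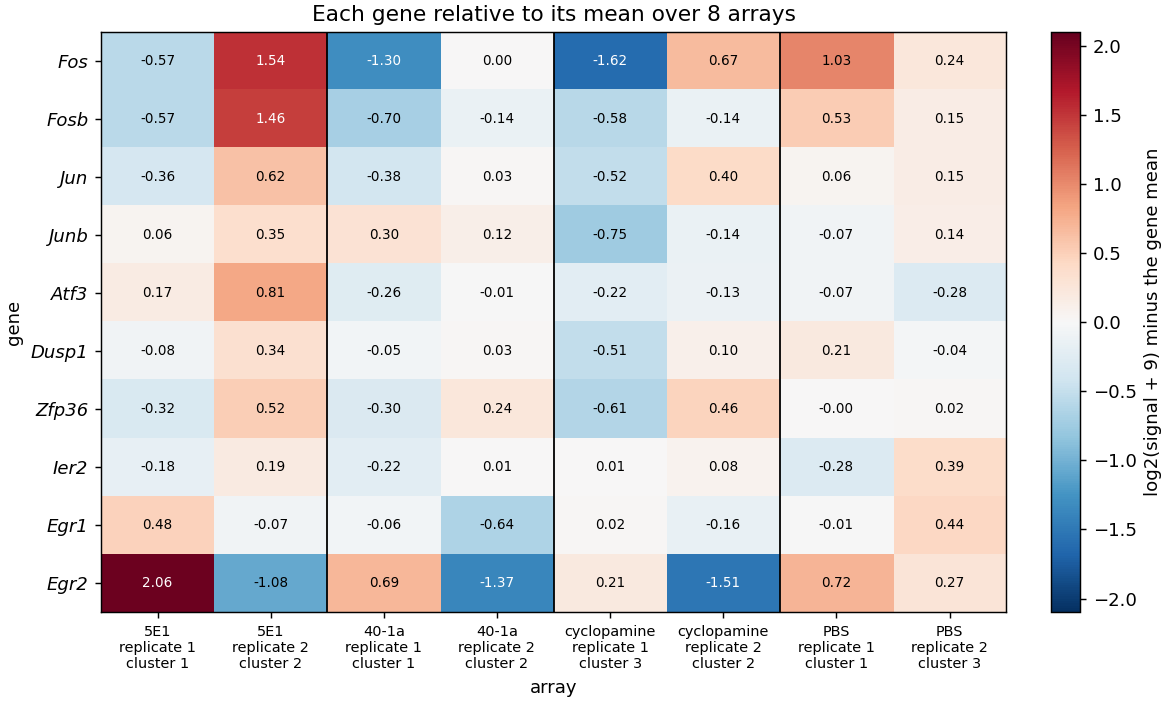
Each gene's log2(signal + 9) minus its mean over the 8 arrays, as a colour and a printed value, with genes in rows and arrays in columns labelled by injection, replicate and cluster. Fos is at 1.54 on 5E1 replicate 2 and at -1.62 on cyclopamine replicate 1, and the Egr2 row runs from 2.06 on 5E1 replicate 1 to -1.51 on cyclopamine replicate 2.

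The comparison of 5E1 with 40-1a holds the antibody injection equal. After 5E1, 9 of the 10 genes had a positive log2 difference, where 46.6% of all genes did, with a median of 0.43 against -0.01 over all genes. These are the values with which the genes were chosen, and nothing is read from them. Fos was at 1.13 (SE 0.89), Fosb at 0.86 (SE 0.63), Egr2 at 0.83 (SE 1.08), Atf3 at 0.62 (SE 0.29) and Egr1 at 0.56 (SE 0.27). The other 5 lay between -0.01 (Junb) and 0.31 (Jun). Only Atf3, at 297 ± 93.8 after 5E1 and 186 ± 23.7 after 40-1a (SD, n = 2 each), had arrays that did not overlap, 1 of 10 where 8.65% of all genes were higher in this way.

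One array carried most of that difference. Without 5E1 replicate 2 the median was -0.07 with 4 of 10 genes above 0, and Fos was at 0.07, Fosb at -0.15, Jun at -0.18 and Zfp36 at -0.28. Without 5E1 replicate 1 it was 0.45 with 9 of 10 above 0. Egr2 went the other way, at 2.40 without 5E1 replicate 2 and -0.74 without 5E1 replicate 1. Atf3 was at 0.30 and 0.94 and Egr1 at 0.84 and 0.28 under the same omissions. Between arrays of one cluster, the median was 0.09 in cluster 1, with 7 of 10 above 0, and 0.44 in cluster 2, with 10 of 10. Fos was at 0.72 and 1.54, Egr1 at 0.55 and 0.57, Atf3 at 0.43 and 0.81 and Egr2 at 1.37 and 0.29 in clusters 1 and 2. On 5E1 replicate 2 the summed dental mesenchyme signal was the lowest of all arrays, at 42086, and its part in these values was not tested.

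Cyclopamine is labelled a Smo antagonist and was set against PBS. Ptch1 and Gli1, textbook targets of Hedgehog signalling looked up after the data were seen, were not clearly lower on its arrays. Ptch1 was at 9683 and 5793 after cyclopamine and 9611 and 8474 after PBS (log2 difference -0.27, SE 0.30), and Gli1 at 2157 and 1193 after cyclopamine and 1070.2 and 2143 after PBS (0.08, SE 0.40), both with overlap. After 5E1 both genes were lower than after 40-1a without overlap, at -2.31 (SE 0.30) and -2.22 (SE 0.40), though not past limma's adjusted test. The comparison is therefore one of cyclopamine with PBS arrays, in which a block of Smo is not shown by these targets. All 10 genes had a negative log2 difference, where 46.9% of all genes did, with a median of -0.29 against 0.02 over all genes. Egr2 was at -1.14 (SE 1.08), Fos at -1.12 (SE 0.89), Fosb at -0.70 (SE 0.63) and Junb at -0.48 (SE 0.27), and Ier2 and Atf3 were within 0.01 of 0. The count depends on the scaling of arrays, with 3 of 10 above 0 under median centring and 1 under quantile normalisation, against 0 in the main fit. Fosb, Junb and Egr2 had arrays that did not overlap, 3 of 10 where 14.4% of all genes were lower in this way. With its second probe set Egr2 overlapped, at 340.4 and 59.3 after cyclopamine and 592 and 269 after PBS. Fosb was near the filter level of 60.5. With limma's moderated test across all genes 0 of the 10 passed, as did 0% of all genes, and the smallest adjusted p among them was 0.982.

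Here too the median turned on 1 array, though not the value of every gene. Without cyclopamine replicate 1, the array with the high 18S signal, the median was 0.02 and 6 of 10 genes were above 0, with Fos at 0.03, Jun at 0.29 and Zfp36 at 0.45, but Egr2 at -2.01. Without cyclopamine replicate 2 the median was -0.61 and 0 of 10 were above 0, with Fos at -2.26, Jun at -0.63, Zfp36 at -0.62 and Egr2 at -0.28. Junb was at -0.17 and -0.78, Fosb at -0.48 and -0.92 and Egr1 at -0.37 and -0.19 under the same omissions. Cluster 3 holds the only pair of arrays from both groups, and there the median was -0.55 with 1 of 10 above 0, Fos at -1.87 and Egr2 at -0.05. Leaving out cyclopamine replicate 1 also removes that pair, so the array and its cluster cannot be told apart here. The part of RNA quality in the values of cyclopamine replicate 1 was not tested.

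**Figure D4:**
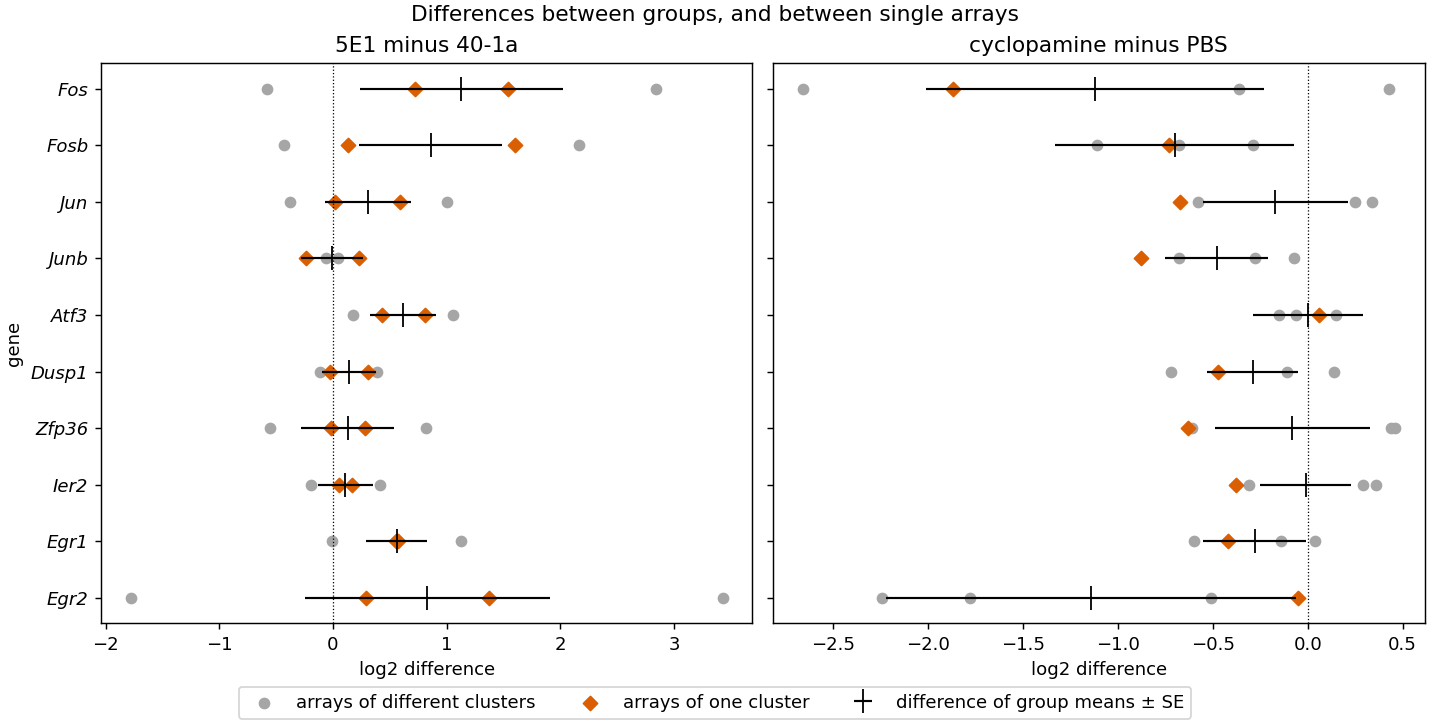
Log2 differences of the 10 genes for 5E1 minus 40-1a (left) and cyclopamine minus PBS (right); circles and diamonds are differences between single arrays of different and of the same cluster, and the vertical tick with a bar is the difference of group means ± SE. For Fos the single pairs lie on both sides of 0 in both panels, while for Atf3 all 4 pairs of 5E1 and 40-1a arrays lie above 0.

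**Figure D5:**
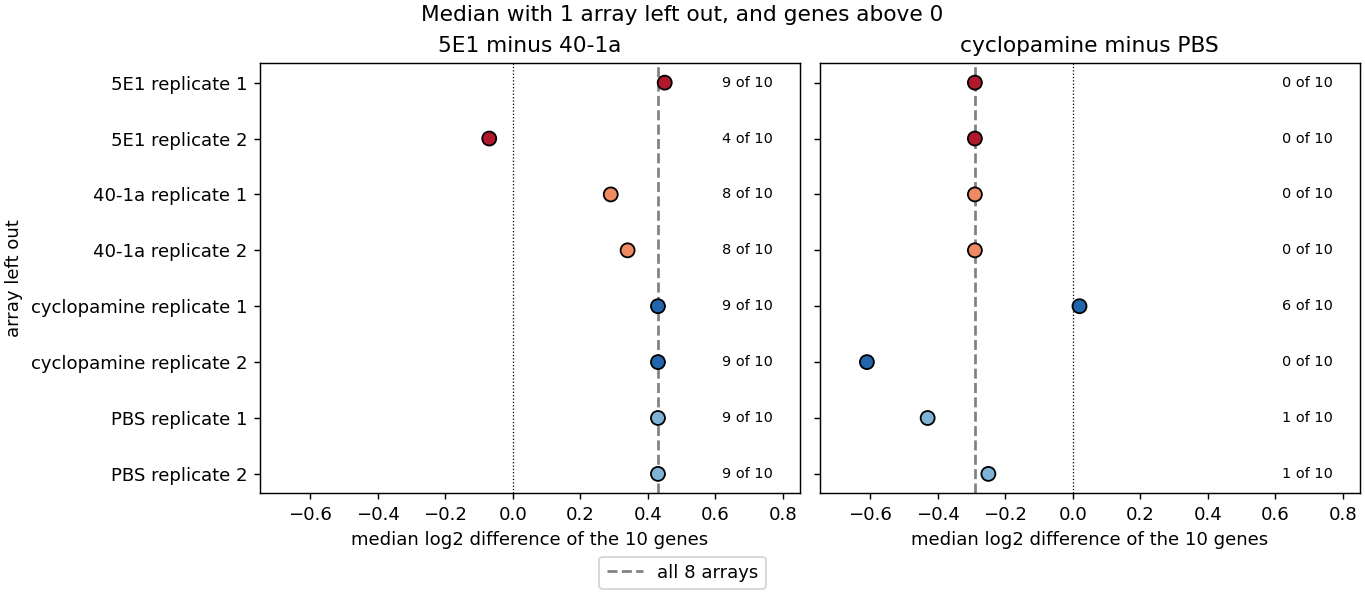
Median log2 difference of the 10 genes with each array left out in turn, for 5E1 minus 40-1a (left) and cyclopamine minus PBS (right), with the number of genes above 0 printed at the side and the value from all 8 arrays as a dashed line. Of these medians the left is below 0 only without 5E1 replicate 2 (-0.07), and the right above 0 only without cyclopamine replicate 1 (0.02).

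The control antibody was itself set against PBS. After 40-1a, 8 of 10 members had a negative difference from PBS, where 50.7% of all genes did, with a median of -0.22. Fos was at -1.28 (SE 0.89), Fosb at -0.76 (SE 0.63), Egr1 at -0.57 (SE 0.27) and Jun at -0.28 (SE 0.38), and in these 4 genes both 40-1a arrays lay below both PBS arrays, 4 of 10 where 10.8% of all genes were lower in this way. With its second probe set Jun overlapped, at 1295 and 1568 after 40-1a and 1520 and 1562 after PBS (log2 difference -0.11). None of the members, and 0% of all genes, passed limma's test (smallest adjusted p among the members 1). Fos was at 999 ± 601 after 40-1a and 2302 ± 873 after PBS (SD, n = 2 each). Its 4 pairs of single arrays were at -2.33 (replicate 1 of both, in cluster 1), -1.54, -1.03 and -0.24. Without 40-1a replicate 1 Fos was at -0.64 and the median of the members at -0.07, and without PBS replicate 1 they were at -0.89 and -0.41. Egr2 was at 0.20 without 40-1a replicate 2 and -1.86 without 40-1a replicate 1.

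With the saline group as the control, the median difference of the 5E1 group lay nearer to 0. The median over the members was 0.03 with 6 of 10 above 0, where 47.3% of all genes were. Fos was at -0.15 (SE 0.89), Fosb at 0.10 (SE 0.63), Egr1 at -0.01 (SE 0.27) and Egr2 at -0.00 (SE 1.08). Atf3 was at 0.67 (SE 0.29), again the only member without overlap, 1 of 10 where 9.95% of all genes were higher in this way. The comparisons with PBS share its arrays, and both 5E1 comparisons share the 5E1 arrays, so these values are not independent. Without 5E1 replicate 2 the median against PBS was -0.20, and without 5E1 replicate 1 it was 0.41. Fos was at -1.21 and 0.91 and Egr2 at 1.57 and -1.58 under the same omissions. Their differences near 0 thus average 5E1 arrays on opposite sides of PBS. Between the replicate 1 arrays of both groups, which share a cluster, Fos was at -1.61 and Egr2 at 1.34.

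The log2 difference for 5E1 against 40-1a minus that for cyclopamine against PBS contains the values with which the genes were chosen, so it too is a description of the members. All 10 had a positive value, where 45.2% of all genes did, with a median of 0.55, and nothing is read from that count. Fos was at 2.25 (SE 1.26), Egr2 at 1.97 (SE 1.52) and Fosb at 1.57 (SE 0.89). Without 5E1 replicate 2 the median was 0.32 with 7 of 10 above 0, and without cyclopamine replicate 1 it was 0.37 with 9 of 10.

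Over all genes limma called 0 of 12999 (0% for each contrast) at an adjusted p of 0.05 in the 5 contrasts. At an unadjusted p under 0.05 it gave 158 genes (1.22%) for 5E1 against 40-1a, 205 (1.58%) for cyclopamine against PBS, 193 (1.48%) for 5E1 against PBS, 88 (0.677%) for 40-1a against PBS and 187 (1.44%) for the difference of both effects. Of the 10 members 0 were among them in any contrast.

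Other immediate early genes were followed through a list of 36, of which 32 were tested. After 5E1, 25 of the 32 had a positive difference from 40-1a, where 46.6% of all genes did, with a median of 0.15. Such genes had been seen in this contrast before, so the count is a description and nothing is read from it. After cyclopamine 18 of 32 had a negative difference from PBS, where 46.9% of all genes did, with a median of -0.08. None passed the adjusted test in any contrast. At an unadjusted p under 0.05, 5E1 against 40-1a gave Nr4a2 (0.68, SE 0.29), an orphan nuclear receptor, and Sgk1 (0.64, SE 0.27), a kinase, both higher. These and the next pair were singled out after their values were seen. Cyclopamine against PBS gave Csrnp1 (0.75, SE 0.31) and the matricellular gene Ccn1 (-0.83, SE 0.27). These 2 genes had like differences after 40-1a against PBS, at 0.90 and -0.76, and the PBS arrays are common to both comparisons.

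Of the tested genes in that list, Egr3, a relative of Egr2, had the widest range. Its signals were 5829 and 249.9 after 5E1, 2417 and 328 after 40-1a, 1402 and 252 after cyclopamine, and 2602 and 2098 after PBS. As with Egr2, the 3 arrays of cluster 2 were the lowest. The phosphatase genes Dusp5 (18.5 to 156) and Dusp2 (98.4 to 319.6) and the epithelial factor Klf4 (1437 to 3885) came next among those tested, and Dusp5 lay below the filter level on 3 of the 8 arrays.

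No tested gene upstream or beside the members had as wide a log2 range as Egr2 (3.58), Fos (3.17) or Fosb (2.16). The widest were Dusp4 (1.98) among brakes and paralogs, Map2k2 (1.40) upstream and Jund (1.11) among relatives of AP-1. The other members lay between 0.67 (Ier2) and 1.14 (Jun). Of 10 tested relatives of AP-1, 6 had a positive difference between 5E1 and 40-1a, where 46.6% of all genes did. The median was 0.02, and 0 passed. Jund, an AP-1 partner that is not an immediate early gene, was at 4827 and 8494 after 5E1, 3940 and 7170.3 after 40-1a, 8107 and 6998 after cyclopamine, and 5308 and 7142 after PBS. Jund was among its higher values on cyclopamine replicate 1, where Junb and the brighter Jun probe set were lowest. The other Jun probe set was at its second highest value there, at 1775. Of 14 kinases and factors upstream, 7 had a positive difference between 5E1 and 40-1a (median 0.00), and 11 had one between cyclopamine and PBS (median 0.04). Of 9 brakes and paralogs, 7 were positive for 5E1 against 40-1a (median 0.05), and none passed.

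Among the brakes named for their range, Dusp6 and Dusp16 were seen to have groups that stood apart, which is a description and no test. Dusp16, a phosphatase that inactivates JNK, was at 1057 and 1668 after 5E1, 1125 and 1558 after 40-1a, 2316 and 2226 after cyclopamine, and 987 and 1267 after PBS. Its cyclopamine arrays lay above the 6 others, with a difference of 1.02 (SE 0.26) from PBS, not past limma's adjusted test. The share of all genes with that order was not counted. Dusp6, which inactivates ERK and marks FGF signalling, was at 7063 and 6941 after 5E1, 4327 and 4476 after 40-1a, 3759 and 3781 after cyclopamine, and 4592 and 4660 after PBS. The arrays of each group lay close together, unlike those of Fos, and all 4 groups were separate from each other. Of all genes 1.78% had both 5E1 arrays above the 6 others, and 2.7% had both cyclopamine arrays below the 6 others. The share with both was not counted. Its difference was 0.67 (SE 0.12) for 5E1 against 40-1a and -0.29 (SE 0.12) for cyclopamine against PBS, neither past limma's adjusted test.

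The heat shock list holds genes that dissection and warming of tissue also induce. Its mean did not share the array order of the members' mean, and nothing on handling is read from that. Of 14 tested, 6 had a positive difference for 5E1 against 40-1a, where 46.6% of all genes did, with a median of -0.03. Heat shock genes too had been seen in this contrast before, so the count is a description. For cyclopamine against PBS 11 were positive, with a median of 0.21. The mean of the list was 0.28 on cyclopamine replicate 2, its highest array, and 0.04 on 5E1 replicate 2, where the members were highest. Single genes differed from that mean. Hspa1a, Hspa1b and Hspb1, 3 of the 14, were higher on every cluster 2 array than on the other 5. Of all genes 8.17% were higher in this way, and of the members Zfp36. The inducible chaperone Hspa1a was at 462 and 781 after 5E1, 402 and 978 after 40-1a, 767 and 1230 after cyclopamine, and 605 and 654 after PBS. Handling was not recorded as a measure, and its part in any of these values was not tested.

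The genes most like the mean profile of the 10 members, by Pearson's r over the 8 arrays, were Taf4 (0.979), Ddhd1 (0.959), Nap1l2 (0.954), Eif1a (0.938), Ttc32 (0.935), Golph3 (0.932), Sfpq (0.917) and Rnft1 (0.913). Their log2 ranges, 0.37 to 0.71, were small beside the 3.17 of Fos. None is in the lists above. The arrays fall in 3 clusters and 12999 genes were ranked, so r here is a description. For Egr2 alone the order was led by Ppic (0.990) and included Egr3 (0.976), while 240 genes had an r over 0.9 with Egr2 and 4 with Fos.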

How the data were processed

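RNA of 8 samples was measured on 1 Affymetrix mouse array each. The authors deposited MAS5 signals, per the submitters' processing notes, which are a linear intensity for each probe set. With 2% trimmed at each end, all arrays had a mean of 500, and they were not rescaled. Software version and scaling target: not given in the sources used here. Of 45101 probe sets, 64 were controls, and the 2016 platform annotation gave 1 gene to 34945, several genes to 932 and none to 9160. Names were updated through gene IDs for 34741. Per gene, the probe set with the highest mean was kept. Values were taken as log2(signal + 9), 9 being the 10th percentile of all values, rounded, which understates the change of weak genes. Genes averaging under the 40th percentile over probe sets (log2 6.12) were left out. A single fit of 4 group means used limma 3.58.1 in R 4.3.3 (lmFit, contrasts.fit, eBayes with a trend), with 4 residual degrees of freedom and Benjamini-Hochberg adjustment over 12999 genes. The number of arrays limits the precision, and SE is that of the fit. The fit was tested on simulated data. The members and lists were chosen with earlier results of these data known. By rule all members were named, up to 4 tested genes of each other list by the width of their range over arrays, and the 8 genes most like the members' mean profile. Genes named beyond that, at an unadjusted p under 0.05 or for their likeness to Egr2, were chosen after their values were seen. The alternatives were other normalisations, pseudocounts, filters, variance models, probe set rules, blocks, the compared groups alone and each array left out. Background correction and slide could not be varied, since scanner files were not used here.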

Additional observations from a re-analysis of the deposited data

How the results depend on the processing

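Under the 14 alternatives that keep all arrays or the compared groups, the median of the members stayed between 0.308 and 0.511 for 5E1 minus 40-1a, -0.447 and -0.157 for cyclopamine minus PBS, -0.344 and -0.162 for 40-1a minus PBS, -0.118 and 0.05 for 5E1 minus PBS, and, under 13 of them, 0.475 and 0.678 for the difference of effects. With 1 array left out it ran from -0.072 to 0.451, -0.607 to 0.019, -0.413 to -0.068, -0.201 to 0.412 and 0.316 to 0.763 in the same order. Of 1085 values of single members under alternatives, 40 moved by at least the SD between replicates, 38 of them with 1 array left out. Limma called 0 genes in 104 of 109 repeats of the 5 contrasts. The replicate number as a block called 1 gene each for 5E1 minus 40-1a and 5E1 minus PBS (Ptch1). The array cluster block called 3 genes for 5E1 minus 40-1a (Ptch1, Gli1 and Sostdc1), 2 for 5E1 minus PBS (Ptch1 and Gli1) and 3 for the difference of effects (Ptch1, Gli1 and Fos), a contrast that holds the values with which Fos was chosen. With that block Fos was at -2.47 for 40-1a minus PBS, against -1.28 without it. The cause of these moves was not tested. The replicate numbers do not pair the samples by the labels, and same-numbered deviations correlated at 0.002 (cyclopamine and PBS) to 0.592 (5E1 and 40-1a). With 2 arrays a group, a difference in Fos or Egr2 smaller than its spread between replicates was not detectable, and a larger one need not be. Even Ptch1, at -2.31 (SE 0.30) for 5E1 minus 40-1a, did not pass without a block. Fosb, near the filter level, was left out by the 60th percentile filter, under which the median is over 9 members.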
